A study of Mus musculus with 11 samples.

Results

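The genes described are 10 astrocyte genes chosen by name: the potassium channel gene Kcnj10, the water channel gene Aqp4, the connexin genes Gja1 and Gjb6, the glutamate transporter genes Slc1a2 and Slc1a3, the bicarbonate transporter gene Slc4a4, and the marker genes Aldh1l1, Gfap and S100b. They are 10 of the 54532 gene rows of the count table, and all 10 were among the 19619 genes with enough counts to be tested. RNA was measured by bulk sequencing in 11 libraries of lateral habenula tissue from BALB/c mice aged 3 months. Collagen antibody-induced arthritis (CAIA) was given by an intraperitoneal cocktail of 5 monoclonal antibodies to type II collagen at 50 mg/kg, followed 3 days later by intraperitoneal lipopolysaccharide (LPS) at 1 mg/kg, and control mice received vehicle in place of both. There were 3 libraries from female CAIA mice, 3 from male CAIA mice, 3 from female control mice and 2 from male control mice, which are numbered 1 and 3. The CAIA groups therefore differ from the controls by antibody and LPS together, and the lateral habenula was dissected from brain slices. The labels do not say whether a library is 1 animal, so p-values measure only the spread between these libraries.

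Astrocytes take up potassium and glutamate that neurons release, share them through gap junctions with neighbouring astrocytes, and exchange water at end-feet on blood vessels. The inwardly rectifying channel Kir4.1, made from Kcnj10, sets the astrocyte membrane potential and so the driving force for glutamate uptake. In the lateral habenula of rats and mice, Kir4.1 on astrocyte processes around neurons is known for its part in neuronal hyperpolarization and burst firing in models of depression.

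The stretches just upstream of the annotated starts of Kcnj10, Gja1 and Gjb6 are shown because Kcnj10 is the habenular potassium channel gene and the connexin pair gave the lowest p-values among the 10 genes. Each holds the 250 bases before the start, 5′ to 3′ on the gene's strand, from RefSeq on GRCm38.p6. They lie at chr1:172340960-172341209 on the plus strand, chr10:56377050-56377299 on the plus strand and chr14:57133612-57133861 on the minus strand, in the order given. Capitals mark any match, on either strand, to an NFI half-site (TTGGC or GCCAA), a STAT motif (TTCNNNGAA) or a SOX core (ACAAT or ATTGT), and none of these motifs contains another.
Kcnj10: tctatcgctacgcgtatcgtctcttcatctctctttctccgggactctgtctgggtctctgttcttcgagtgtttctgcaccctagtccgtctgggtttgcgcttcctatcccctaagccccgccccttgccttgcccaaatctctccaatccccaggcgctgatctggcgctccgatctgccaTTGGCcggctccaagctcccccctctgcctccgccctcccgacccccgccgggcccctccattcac
Gja1: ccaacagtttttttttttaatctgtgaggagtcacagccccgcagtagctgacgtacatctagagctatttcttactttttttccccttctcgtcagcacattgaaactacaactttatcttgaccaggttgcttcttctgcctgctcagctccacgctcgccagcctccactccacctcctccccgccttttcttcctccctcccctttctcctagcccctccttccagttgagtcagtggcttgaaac
Gjb6: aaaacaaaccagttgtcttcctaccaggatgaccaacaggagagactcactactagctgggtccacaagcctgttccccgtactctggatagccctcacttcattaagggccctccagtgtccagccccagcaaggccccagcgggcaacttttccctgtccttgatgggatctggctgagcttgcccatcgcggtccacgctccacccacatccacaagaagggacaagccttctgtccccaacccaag
The Kcnj10 stretch held 1 NFI half-site and was 62.0% G or C, while the Gja1 stretch (50.0%) and the Gjb6 stretch (56.8%) held none of the 3 motifs. Among 32851 RefSeq promoters of the same length, 41.5% held the NFI half-site, 7.02% the STAT motif and 27.7% the SOX core, so a match or its lack is common. Promoter entries were matched for 9 of the 10 genes.

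Levels are given in CPM, counts scaled to library size with trimmed mean of M values (TMM) factors, and were divided by gene length only to compare different genes. In the control libraries the order per kilobase of merged exons began with Kcnj10, at 116 ± 10.3 CPM per kilobase (SD, n = 5), followed by Slc1a2, which encodes the main astrocyte glutamate transporter GLT-1, at 106 ± 32.5 CPM per kilobase. Then came Gfap, the intermediate filament gene, at 59.6 ± 18.8, S100b, a calcium-binding protein gene, at 48.2 ± 5.47, and Slc1a3, which encodes the glutamate transporter GLAST, at 43.4 ± 6.14 CPM per kilobase. Lower in the order were Aqp4 at 40.4 ± 10.9, Gjb6 (connexin 30) at 30.2 ± 2.86, Slc4a4 at 29.0 ± 3.34 and Gja1 (connexin 43) at 26.3 ± 1.69 CPM per kilobase. Aldh1l1, a folate enzyme gene used as an astrocyte marker, was the lowest at 11.7 ± 1.32 CPM per kilobase. Of the 9 neighbouring pairs in this order, only Gja1 and Aldh1l1 had control ranges that did not overlap.

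**Figure D1:**
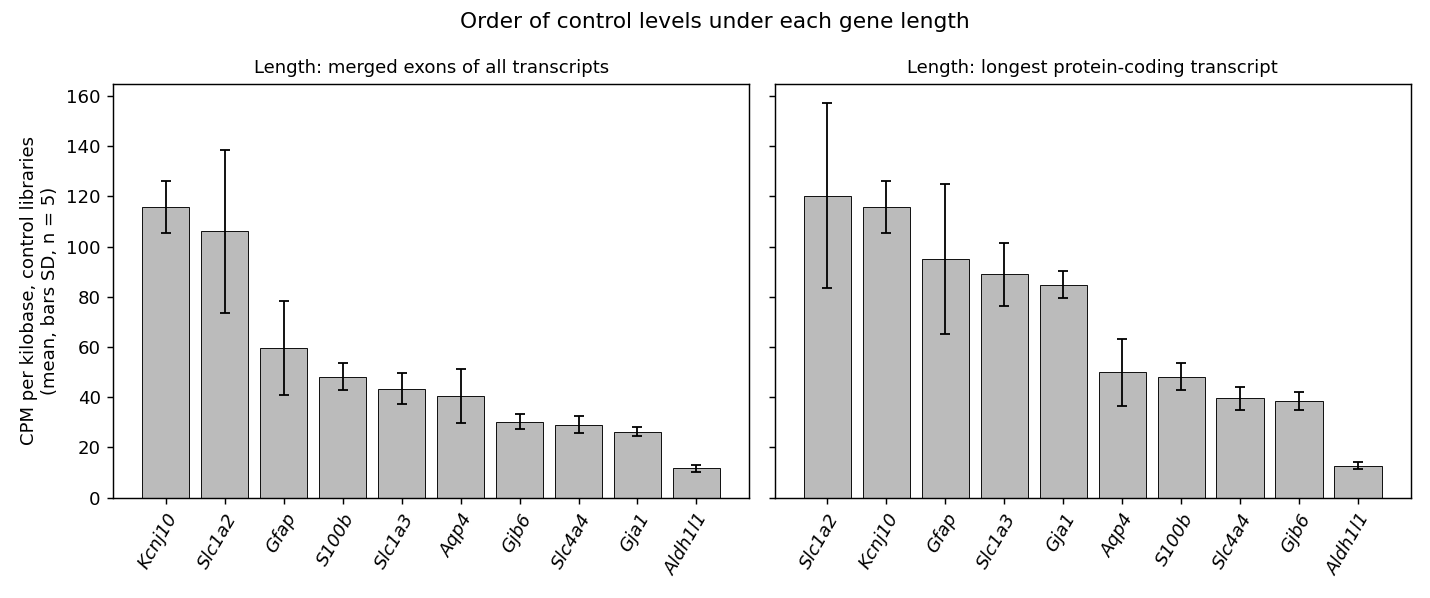
Mean level in the 5 control libraries, in CPM per kilobase with the SD as error bar, when gene length is taken from the merged exons of all transcripts (left) or from the longest protein-coding transcript (right). Gja1 stands at 26.3 on the left and at 84.8 CPM per kilobase on the right, and Aldh1l1 is the lowest of the 10 genes in both.

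The order depended on the length used. With the longest protein-coding transcript in place of merged exons, Slc1a2 led at 120.3 CPM per kilobase, Kcnj10 followed at 116, and Gja1 took rank 5 at 84.8 instead of rank 9, since its merged exons span 10257 bases against 3182 in that transcript. Slc1a3 stood at 88.9 CPM per kilobase on that scale. On the scale without length, Slc1a2 ranked 37 and Kcnj10 ranked 154 among the 19619 genes by mean control CPM. Gja1 ranked 634, while Aldh1l1, the lowest of the 10, ranked 4675. All 10 astrocyte markers were thus well detected, with at least 1247 counts in every library. For Slc1a2, 1.44% of exon bases overlap an antisense gene, and for Aldh1l1 13.4% overlap a same-strand and an antisense gene, so a small share of their reads cannot be assigned with certainty.

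In CAIA against control over both sexes, 9 of the 10 genes had a higher fitted level in CAIA and none passed an adjusted p of 0.05. The connexin genes Gja1 and Gjb6 and the bicarbonate transporter gene Slc4a4 had the lowest unadjusted p-values, with differences of 0.17 to 0.19 on the log2 scale. The glutamate transporter genes Slc1a2 and Slc1a3, and the markers Aldh1l1 and S100b, differed by at most 0.06 on that scale. The count of genes passing was 0 of 10 with edgeR's quasi-likelihood test, DESeq2 and limma-voom alike, against 0.596% of all genes tested with edgeR (0.0204% higher and 0.576% lower in CAIA). At an unadjusted p of 0.05, 3 of the 10 passed, all higher in CAIA, against 2.44% of all genes higher and 3.92% lower. The median log2 fold change over the 10 genes was 0.14, and over all 19619 genes it was 0.00017, with 50% of all genes positive. No gene of the 10 had all CAIA libraries on 1 side of all control libraries over both sexes, against 0.168% of all genes higher and 1.01% lower. In bulk tissue, a change in the number of astrocytes and a change in RNA per astrocyte cannot be told apart.

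**Figure D2:**
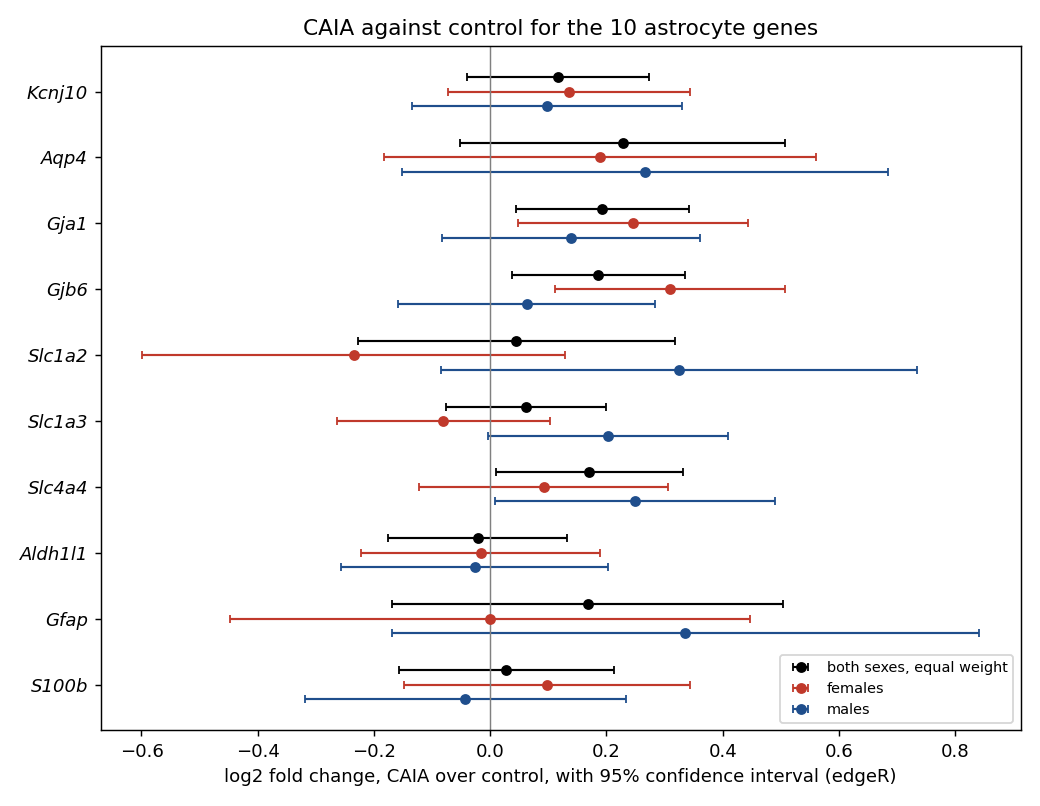
Log2 fold change of CAIA over control for each of the 10 genes, with 95% confidence intervals from edgeR, over both sexes (black), in females (red) and in males (blue). Over both sexes the points lie between -0.02 (Aldh1l1) and 0.23 (Aqp4), and the intervals of Gja1, Gjb6 and Slc4a4 lie above 0 before adjustment.

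Kcnj10 had 731, 685 and 692 CPM in female CAIA libraries, against 637, 702 and 579.6 CPM in female control libraries. In males it had 693, 607 and 638 CPM in CAIA libraries, against 563 and 645 CPM in control libraries. The highest of the 11 libraries was a female CAIA library and the lowest a male control library, but the groups overlapped in both sexes. Over both sexes, Kcnj10 differed by 0.12 ± 0.07 on the log2 scale (SE), with a 95% interval of -0.04 to 0.27 and an edgeR adjusted p of 0.881. The interval leaves room for a difference in either direction, with an upper end of 0.27. The values were 0.14 ± 0.10 in females and 0.10 ± 0.11 in males. Without male control 1, the library with the lowest Kcnj10, the difference was 0.06 over both sexes and -0.0043 in males, and without male control 3 it was 0.18 and 0.21, with no pass.

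Aqp4, which encodes the water channel aquaporin-4 of perivascular end-feet, had 306, 313 and 312 CPM in female CAIA libraries, against 231, 225 and 360.1 CPM in female control libraries. In males it had 261, 266 and 272 CPM in CAIA libraries, against 179 and 264 CPM in control libraries. The CAIA libraries of each sex lay close together, with a coefficient of variation of 1.31% in females and 2.15% in males, while the control libraries varied by 28.1% and 27.2%. Wider control spread was not particular to Aqp4. With the sexes pooled, the coefficient of variation was larger in control libraries for each of the 10 genes but Gja1. It was 14.2% in control and 4.36% in CAIA libraries for Slc1a3, and 6.43% and 7.12% for Gja1. The spread between groups was not itself tested. The log2 fold change of Aqp4 over both sexes was 0.23 ± 0.13 (SE), the largest of the 10 and among the less certain. It had a 95% interval of -0.05 to 0.51 and an edgeR adjusted p of 0.866. Without female control 3, the library with the highest Aqp4, the difference was 0.35 with an edgeR adjusted p of 0.156. Without male control 1, the library with the lowest, it was 0.09, and without male control 3 it was 0.39 (adjusted p of 0.197), so none of these passed.

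Gja1 and Gjb6 encode connexin 43 and connexin 30, which form the gap junctions between astrocytes. Gja1 had 316, 331 and 308 CPM in female CAIA libraries, against 267, 248 and 290.1 CPM in female control libraries. Gjb6 had 95.4, 99.5 and 96.5 CPM in female CAIA libraries, against 82.5, 84.9 and 67.8 CPM in female control libraries. In females every CAIA library thus lay above every control library for both connexins, as was so for 5.08% of all genes tested. In male CAIA libraries Gja1 had 294, 275 and 331 CPM, against 259 and 284 CPM in male control libraries. For Gjb6 the male CAIA libraries had 80.7, 93.0 and 91.3 CPM, against 87.5 and 81.6 CPM in male control libraries. The male groups overlapped for both genes, with the lowest male CAIA value of Gjb6 below both control values.

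In females the log2 fold change was 0.25 ± 0.09 (SE) for Gja1 and 0.31 ± 0.09 for Gjb6, with unadjusted p-values of 0.0186 and 0.00458 and edgeR adjusted p-values of 0.700 and 0.389. Over both sexes it was 0.19 ± 0.07 for each of the connexins, with edgeR adjusted p-values of 0.542 for Gja1 and 0.580 for Gjb6. Neither gene passed in any of these contrasts. The female minus male difference was 0.25 ± 0.14 for Gjb6, with an edgeR adjusted p of 0.978, so the larger female value was not shown to differ from the male value of 0.06 ± 0.10. The ratio of Gjb6 to Gja1 CPM was 0.301 ± 0.024 in CAIA libraries and 0.302 ± 0.044 in control libraries (SD, n = 6 and 5).

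Slc1a2 had 1481, 1348 and 1209 CPM in female CAIA libraries, against 2113, 1371 and 1268 CPM in female control libraries. Male CAIA libraries had 1505, 1376 and 1293 CPM, against 979 and 1243 CPM in male control libraries. The most extreme libraries at both ends were controls: female control 1 was 2.16 times male control 1. Slc1a3 also had its highest and its lowest value in control libraries, with 398, 370.3 and 378 CPM in female CAIA libraries, against 438, 369 and 406 CPM in female control libraries. In males it had 385, 349.6 and 369 CPM in CAIA libraries, against 325 and 315 CPM in control libraries. For both transporters every male CAIA library lay above both male controls, as did 9.18% of all genes tested, and the female groups overlapped.

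The log2 fold change of Slc1a2 was -0.24 ± 0.17 (SE) in females and 0.32 ± 0.19 in males, and that of Slc1a3 was -0.08 ± 0.09 in females and 0.20 ± 0.10 in males. The female minus male difference was -0.56 ± 0.25 for Slc1a2 and -0.28 ± 0.13 for Slc1a3. Their unadjusted p-values were 0.0458 and 0.0451, and both had an edgeR adjusted p of 0.978. Without female control 1, the female value of Slc1a2 was 0.04, so its negative sign in females rested on that library. Over both sexes Slc1a2 differed by 0.04 ± 0.13 and Slc1a3 by 0.06 ± 0.06, with edgeR adjusted p-values of 0.981 and 0.941. Scaled on other astrocyte genes instead of TMM, these small values were -0.02 and -0.01.

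Slc4a4 encodes the sodium bicarbonate cotransporter NBCe1, which couples astrocyte potential to pH. It had 359.8, 353 and 330.3 CPM in female CAIA libraries, against 321, 327 and 331 CPM in female control libraries. Male CAIA libraries had 352, 345 and 353 CPM, against 250.05 and 339 CPM in male control libraries. Male control 1 stood apart from the other 10 libraries, and the male groups did not overlap. The log2 fold change was 0.17 ± 0.08 (SE) over both sexes and 0.25 ± 0.11 in males, with unadjusted p-values of 0.0395 and 0.0439 and edgeR adjusted p-values of 0.746 and 0.878. This gene was the only one of the 10 to pass under any alternative. Without male control 3, which left male control 1 as the sole male control, Slc4a4 rose by 0.30 over both sexes and 0.50 in males, with edgeR adjusted p-values of 0.0430 and 0.0454. Without male control 1 the values were 0.06 and 0.04.

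The 3 marker genes varied in different libraries. Gfap had 253, 303 and 274 CPM in female CAIA libraries, against 229, 208 and 393 CPM in female control libraries. Its male CAIA libraries had 231, 290.2 and 289 CPM, against 216 and 212 CPM in male control libraries. Female control 3 was the highest of all 11 libraries, and the males did not overlap. Aldh1l1 had 52.4, 55.2 and 52.1 CPM in female CAIA libraries, against 62.4, 52.4 and 46.8 CPM in female control libraries, and in males 49.2, 49.7 and 50.7 CPM in CAIA libraries, against 52.6 and 49.1 CPM in control libraries. S100b had 70.7, 75.3 and 81.1 CPM in female CAIA libraries, against 72.4, 65.3 and 74.6 CPM in female control libraries. In males S100b had 65.5, 65.01 and 81.5 CPM in CAIA libraries, against 83.1 and 62.5 CPM in control libraries. The treatment groups overlapped within each sex for Aldh1l1 and S100b.

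Gfap, which is induced when astrocytes become reactive, differed by 0.17 ± 0.15 on the log2 scale (SE) over both sexes, with a 95% interval of -0.17 to 0.50 and an edgeR adjusted p of 0.935. In males its log2 fold change was 0.34 ± 0.23, and in females it was near 0 with an SE of 0.20. Without female control 3 the value was 0.33 over both sexes and 0.34 in females, again with no pass (edgeR adjusted p of 0.103 and 0.452), and without female control 2 or 1 the value over both sexes was 0.09 or 0.11. Aldh1l1 differed by -0.02 ± 0.07 and S100b by 0.03 ± 0.09 over both sexes, and each had an edgeR adjusted p of 0.983. The interval of Aldh1l1, from -0.18 to 0.13, was among the narrower ones.

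**Figure D3:**
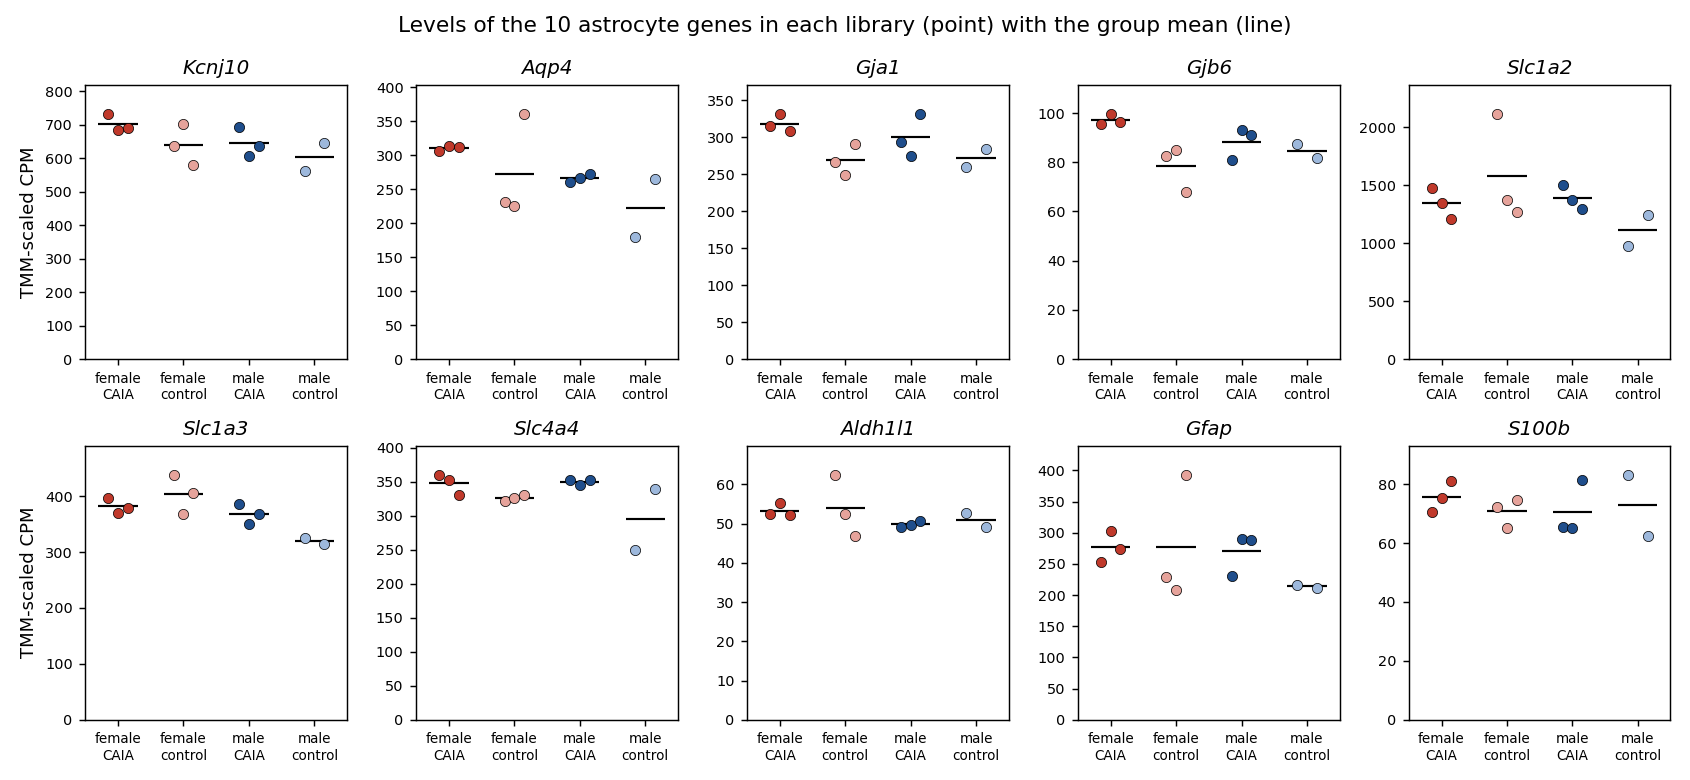
CPM of each of the 10 genes in every library (points), with the group mean (line), for female CAIA, female control, male CAIA and male control libraries. With the sexes pooled, the control libraries spread more widely than the CAIA libraries for each gene but Gja1. Relative to the mean, the control spread was largest for Aqp4, Slc1a2 and Gfap. Their highest values, 360.1, 2113 and 393 CPM, were all in female control libraries. In males Gfap went the other way, with an SD of 3.33 CPM in control and 33.9 CPM in CAIA libraries.

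Within the sexes, 6 of 10 genes were positive in females, against 49.5% of all genes, and 8 of 10 in males, against 49.8% of all genes. None of the 10 passed in females with edgeR, DESeq2 or limma-voom, against 0.26% of all genes with edgeR, and 2 passed at an unadjusted p of 0.05, where 1.16% of all genes were higher and 4.06% lower. In males 0 of 10 passed with the same 3 tools, against 0% of all genes with edgeR, and 1 passed at an unadjusted p of 0.05, where 3.13% of all genes were higher and 2.5% lower. In males, 4 of the 10 genes, Slc1a2, Slc1a3, Slc4a4 and Gfap, had groups that did not overlap, all higher in CAIA, where the share over all genes higher in CAIA was 9.18%. The female minus male difference passed for 0 of 10 genes with edgeR, against 0% of all genes, and 2 genes had an unadjusted p of at most 0.05, against 4.11% of all genes.

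Female libraries had the higher fitted level than male libraries for all 10 genes when both treatments were given equal weight, against 51% of all genes. This was not particular to the 10 genes. All tested markers were also higher in females for oligodendrocytes (10 of 10), oligodendrocyte precursors (5 of 5), ependyma (8 of 8), and hippocampus and cortex (8 of 8). Most were lower in females for thalamus (7 of 8), choroid plexus (11 of 14) and pineal gland (5 of 6). Medial habenula was near an even split, with 5 of 9 lower. Higher in females were 8 of 10 meningeal fibroblast, 6 of 8 lateral habenula and 6 of 8 microglia markers. For endothelium and for neurons 5 of 8 were higher. None of the 10 passed with edgeR, against 0.0459% of all genes, and 1 had an unadjusted p of at most 0.05, against 6.76% of all genes. That gene was Slc1a3, with a log2 fold change of female over male of 0.20 ± 0.06 (SE), an unadjusted p of 0.00868 and an edgeR adjusted p of 0.725. Aqp4 had the largest difference, 0.26 ± 0.13, with an edgeR adjusted p of 0.760. The median of 0.10 over the 10 genes stood beside 0.0036 over all genes.

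With 11 libraries, no pair of the 10 genes was shown to vary together. Among their 45 pairs, 30 had a positive Pearson correlation of log2 CPM over the 11 libraries, with a median r of 0.280 and a range of -0.430 to 0.777, and none passed after Benjamini-Hochberg adjustment over the 45 pairs. The highest was Aqp4 with Gfap, at r = 0.777 (permutation p = 0.00531, adjusted 0.205) and rho = 0.845 (permutation p = 0.00202, adjusted 0.0832). Without the 2 libraries farthest from the median of Aqp4 the r was 0.693. Slc1a2 with Slc1a3 had r = 0.745 (permutation p = 0.0107, adjusted 0.205) and rho = 0.527 (permutation p = 0.0999, adjusted 0.642), and r = 0.338 without the 2 farthest libraries. With group means removed, r was 0.736 for Aqp4 with Gfap and 0.583 for Slc1a2 with Slc1a3. By the same step, Kcnj10 with Gfap went from -0.266 to -0.799, and Aqp4 with Gjb6 from -0.056 to -0.759. The values with group means removed were not tested. All pairs share libraries, depth and the scaling factor.

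Genes with a pattern most like that of Kcnj10 were looked for by Pearson's r of log2 CPM over the 11 libraries. The search covered the 12232 genes averaging 5 CPM or more that are not among the 10. The highest were Pcdh10 (r = 0.968, rho = 0.964), Atp6v1a (r = 0.951, rho = 0.973), Megf9 (r = 0.945, rho = 0.982), Dnajc6 (r = 0.943, rho = 0.955) and Zmat3 (r = 0.937, rho = 0.882), given with no p since they were picked as the highest. Pcdh10 also belongs to the list of lateral habenula markers described further on. The 10 astrocyte genes had been left out of this ranking. The highest r of Kcnj10 to any of the other 9 was 0.625, to Slc4a4, and it was 0.101 without the 2 farthest libraries. For the 10 genes as a whole, the highest mean r was lower, and the genes among the highest 5 included Mpeg1 at 0.490, Adgrl4 at 0.485, Serinc3 at 0.483 and Rab10 at 0.470.

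Other genes of the same processes were read from 7 lists, each described by its counts over both sexes in edgeR. For potassium and sodium handling, 3 of 9 genes were positive, 0 passed and the median log2 fold change was -0.07. The lowest p-values there were those of Slc12a2, which encodes the sodium-potassium-chloride cotransporter NKCC1, at -0.27 ± 0.10 (SE), Fxyd1, a sodium pump regulator gene, at -0.25 ± 0.10, and Kcnk2, which encodes the potassium channel TREK-1, at 0.27 ± 0.12. With the choroid plexus marker level as a covariate, which separates the treatments, Slc12a2 stood at 0.21. For the perivascular water channel complex, 5 of 8 genes were positive, 0 passed and the median was 0.04. Its lowest p-values were those of the dystrophin gene Dmd at 0.18 ± 0.08, the chloride channel gene Clcn2 at -0.14 ± 0.07 and the dystrobrevin gene Dtna at 0.13 ± 0.07. None of the genes named here passed the adjusted threshold, but without male control 3 Dmd stood at 0.31 with an edgeR adjusted p of 0.0436.

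For glutamate and glutamine metabolism, 4 of 8 genes were positive, 0 passed and the median was 0.02. They included Slc38a3, a glutamine transporter gene, at -0.17 ± 0.06 (SE), Glul, which encodes glutamine synthetase, at 0.18 ± 0.10, and Glud1, which encodes glutamate dehydrogenase, at 0.08 ± 0.06. For gap junction partners and other connexins, 5 of 9 genes were positive, 0 passed and the median was 0.04, with Gjd2 at 0.22 ± 0.13, Gjb2 at -0.18 ± 0.12 and Tjp1 at 0.10 ± 0.08. Among 18 other astrocyte identity genes, 12 were positive, 0 passed and the median was 0.04. The amino acid transporter gene Slc7a10 stood at -0.16 ± 0.08, Sparcl1, which encodes the synaptogenic protein hevin, at 0.14 ± 0.07, and the receptor gene Fgfr3 at 0.15 ± 0.08. The median of the 10 genes, 0.14, was above these medians, a description with no test.

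Acid-base handling held 2 genes that fell, out of 9 tested, of which 2 were positive, and its median was -0.09. Slc4a2, which encodes the anion exchanger AE2, had 49.8, 53.5 and 50.5 CPM in female CAIA libraries, against 75.7, 88.4 and 86.1 CPM in female control libraries. In males it had 44.7, 63.3 and 50.3 CPM in CAIA libraries, against 77.3 and 80.2 CPM in control libraries. Every CAIA library was below every control library, as for 1.01% of all genes tested. Slc4a2 fell by 0.64 on the log2 scale (SE 0.08, edgeR adjusted p = 0.00410) over both sexes and by 0.70 in females (adjusted p = 0.0226), where 5 of the 11 libraries, left out singly, each ended the call. Car14, which encodes a membrane-bound carbonic anhydrase, fell by 0.69 (SE 0.11, edgeR adjusted p = 0.0120) over both sexes. Without female CAIA 1 its adjusted p was 0.0552. Bsg stood at -0.19 ± 0.08 and did not pass.

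Among reactive astrocyte genes, 10 of 21 tested were positive, 1 fell and the median was -0.03. Steap4, a metalloreductase gene, had 0.889, 0.384 and 0.343 CPM in female CAIA libraries, against 1.09, 1.30 and 2.45 CPM in female control libraries. In males it had 0.237, 0.824 and 0.719 CPM in CAIA libraries, against 2.03 CPM in each of the male control libraries. Steap4 fell by 1.67 on the log2 scale (SE 0.34, edgeR adjusted p = 0.0377), and leaving out any of 8 libraries singly put its adjusted p at 0.0617 to 0.131. Serpina3n, a marker of reactive astrocytes, stood at 0.59 ± 0.20 and Hspb1, a small heat shock protein gene, at -0.26 ± 0.09, and neither passed. Serpina3n passed without female control 3 (0.81, edgeR adjusted p = 0.00573), the library that also had the highest Gfap, and with DESeq2 (0.59, adjusted p = 0.0435). Cxcl10 had 17 counts in all libraries together and was not tested.

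Markers of the choroid plexus, a ventricular tissue that lies beside the habenula, moved with these falls. Their mean was 2.07 to 4.94 log2 CPM in CAIA libraries, against 5.40 to 6.29 log2 CPM in control libraries, and all 14 were lower in CAIA, 6 of them past the threshold. Ttr, the transthyretin gene, had 27.0 to 29.8 CPM in female CAIA libraries, against 1469 to 3289 CPM in female control libraries. In males Ttr had 65.6, 1188 and 305 CPM in CAIA libraries, against 2704 and 2577 CPM in control libraries. With the mean level of these markers as a covariate, the log2 fold change of Slc4a2 was -0.06, of Car14 0.03 and of Steap4 0.27, and none passed. With the same covariate Kcnj10 stood at -0.10. Since the marker level separated the treatments completely, its part and that of treatment cannot be told apart.

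Hippocampus and cortex markers varied between libraries and separated the treatments in males but not in females. The mean of 8 hippocampus and cortex markers was 2.79 to 3.85 log2 CPM in CAIA libraries, against 2.25 to 4.68 log2 CPM in control libraries. Female control 1, the library with the highest Slc1a2, had the highest mean, and the means in males were 3.71, 3.85 and 3.48 log2 CPM in CAIA libraries, against 2.25 and 2.38 log2 CPM in control libraries, the lowest of all. In males 7 of the 8 markers were positive, with a median log2 fold change of 1.10 and 0 past the adjusted threshold in edgeR (3 at an unadjusted p of 0.05). Male groups also did not overlap for Slc1a2, Slc1a3, Slc4a4 and Gfap. Hippocampus and cortex was not the only list of which this was so. Lateral habenula markers were higher in male CAIA libraries, at 6.31 to 6.42 log2 CPM against 6.22 to 6.27 in male controls. Glutamate and glutamine metabolism was too, at 6.47 to 6.52 against 6.43 to 6.44. Choroid plexus and acid-base handling levels were lower in every male CAIA library than in both male controls. Whether these separations are linked was not tested. The 10 genes were set against 18 lists, 180 relations in all. The choroid plexus and acid-base handling lists were left out, since their levels separated the treatments completely. Slc1a2 correlated with the hippocampus and cortex mean at r = 0.858 (permutation p = 0.00068, adjusted 0.0612 over the 180 relations) and rho = 0.873 (permutation p = 0.00099, adjusted 0.109). Without the 2 farthest libraries its r was 0.612. With this mean as a covariate, an alternative added after seeing the data, the log2 fold change of Slc1a2 was -0.11 over both sexes, and the female minus male difference was 0.13 in place of -0.56. In males the covariate gave -0.17 for Slc1a2 and 0.05 for Slc1a3, in place of 0.32 and 0.20. Slc4a4 stood at 0.22 and Gfap at 0.36, in place of 0.25 and 0.34. Since this marker mean separated the treatments completely in males, its part and that of treatment cannot be told apart there. The same holds for the female minus male difference, which includes the male values.

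**Figure D4:**
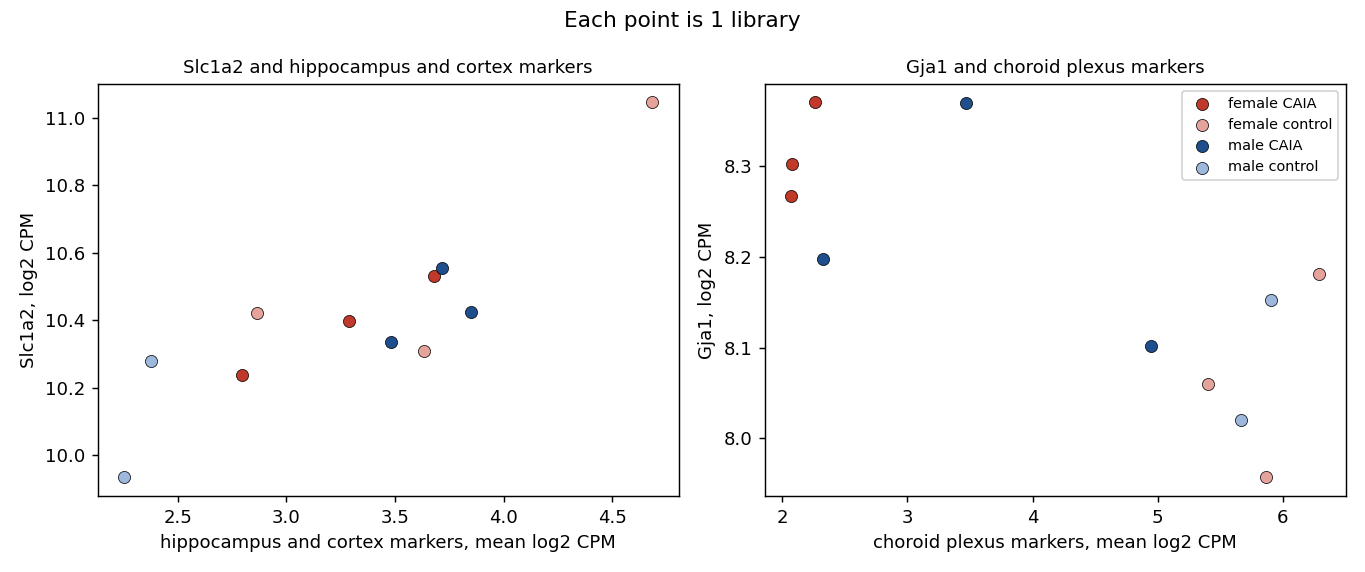
Slc1a2 against the mean of the hippocampus and cortex markers (left) and Gja1 against the mean of the choroid plexus markers (right), all in log2 CPM, with a point for each of the 11 libraries coloured by sex and treatment. Female control 1 has the highest marker mean on the left, 4.68, and the CAIA libraries all lie below 5.40 on the right.

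Of the 180 relations, 1 had an adjusted permutation p of r at or below 0.05. Slc1a3 correlated with the glutamate and glutamine metabolism list at r = 0.892 (permutation p = 0.00021, adjusted 0.0378) and rho = 0.864 (permutation p = 0.00121, adjusted 0.109), with r = 0.731 without the 2 farthest libraries. On average both were highest in female controls (404 CPM and 6.56 log2 CPM) and lowest in male controls (320 CPM and 6.44 log2 CPM). The permutations ignored sex and treatment, so differences between groups were not separated from variation within them. Aldh1l1 correlated with the other astrocyte identity genes at r = 0.835 (permutation p = 0.00128, adjusted 0.0768) and rho = 0.782 (permutation p = 0.00636, adjusted 0.224), with r = 0.666 without the 2 farthest. Gfap had a negative relation with the thalamus markers, at r = -0.820 (permutation p = 0.00292, adjusted 0.0915) and rho = -0.709 (permutation p = 0.0173, adjusted 0.390), with r = -0.510 without the 2 farthest. Aqp4 correlated with the oligodendrocyte precursor markers at r = 0.807 (permutation p = 0.00356, adjusted 0.0915) and rho = 0.618 (permutation p = 0.0484, adjusted 0.545), with r = 0.402 without the 2 farthest. The part of tissue carried along in the dissection in the values of the 10 genes was not tested beyond these relations and covariates.

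**Figure D5:**
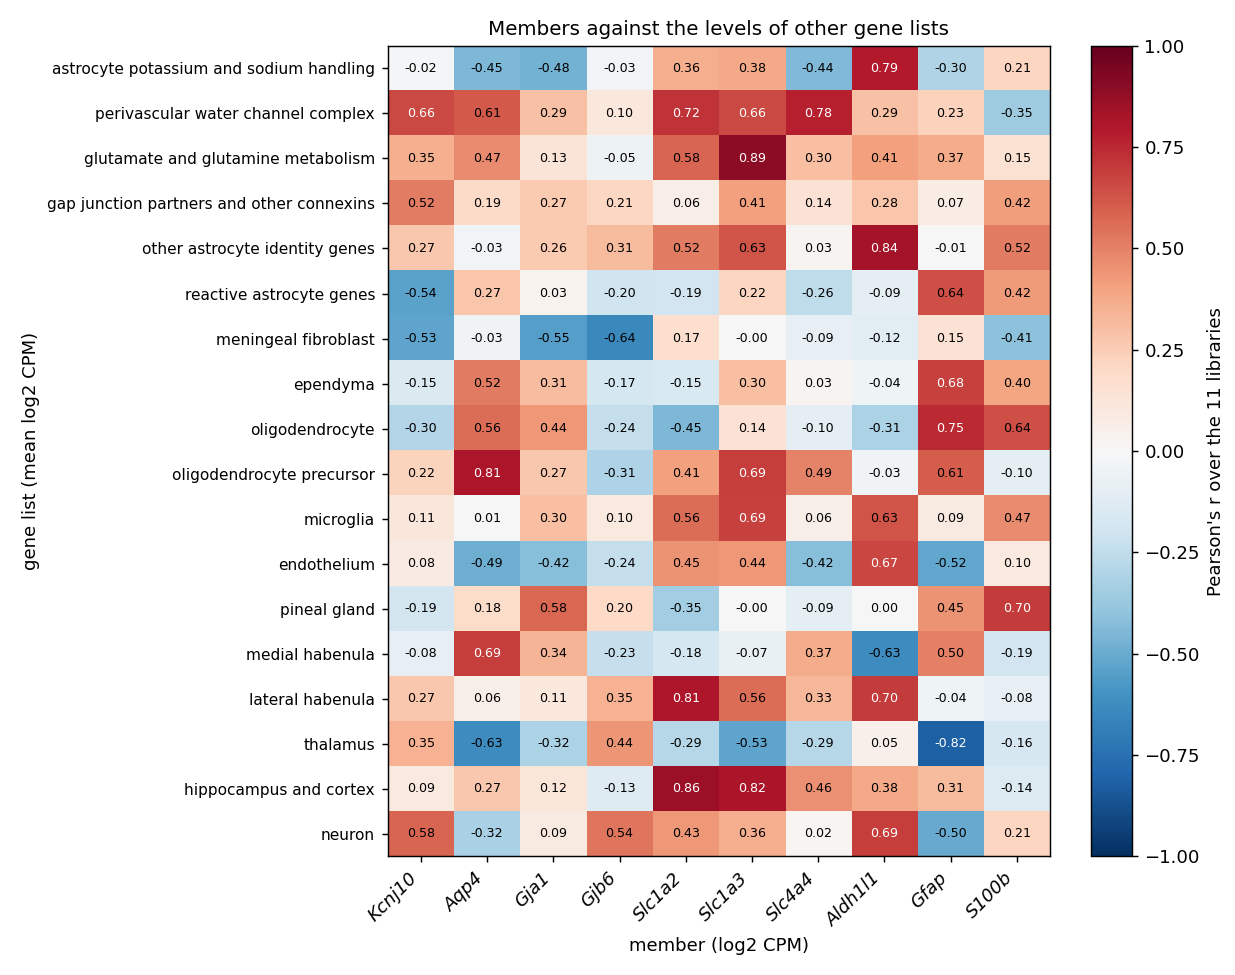
Pearson's r over the 11 libraries between the log2 CPM of each of the 10 genes (columns) and the mean log2 CPM of each of 18 gene lists (rows), with red for positive and blue for negative values. Slc1a3 with glutamate and glutamine metabolism (0.892) and Slc1a2 with hippocampus and cortex (0.858) are the highest cells. The choroid plexus and acid-base handling lists, whose levels separated the treatments completely, are not shown.

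Several other cell type lists overlapped between treatments over both sexes. Microglia markers averaged 3.94 to 4.11 log2 CPM in CAIA libraries, against 3.88 to 4.21 in control libraries. Oligodendrocyte markers averaged 7.58 to 7.88 log2 CPM in CAIA libraries, against 7.61 to 8.06 in control libraries. Neuron markers averaged 8.98 to 9.14 log2 CPM in CAIA libraries, against 8.87 to 9.17 in control libraries, and lateral habenula markers 6.31 to 6.42 against 6.22 to 6.54. Medial habenula markers were about as high, at 6.16 to 6.47 log2 CPM in CAIA libraries and 5.98 to 6.53 in control libraries, so the libraries held markers of both habenular nuclei, beside those of the thalamus, at 7.72 to 8.03 log2 CPM in CAIA libraries and 7.31 to 8.13 in control libraries. Of the meningeal fibroblast list, 9 of 10 markers were lower in CAIA and 2 passed, and of 8 endothelial markers 7 were lower and 1, Kdr, passed.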

How the data were processed

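The authors deposited whole-number read counts per gene for the 11 libraries. Per the submitters' processing notes, the tools were featureCounts 1.5.0-p3 for counting, HISAT2 2.0.5 for alignment and cutadapt 1.9.1, and the build was GRCm38. How strand was set, and which annotation was counted, is not given in the sources used here. Totals were 25317306 to 29565006 counts per library. Replicates of a group differed by more than sampling noise. Chi-square per degree of freedom was 6.59 to 15.6 between CAIA replicates and 17.2 to 27.7 between control replicates.

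The counts were used as deposited. Genes were filtered with filterByExpr by group (19619 left), scaled with TMM and fitted as 4 group means in edgeR 4.0.16 under R 4.3.3, by robust glmQLFit and glmQLFTest with 7 residual degrees of freedom. A joint fit was used because the males have only 2 controls. Benjamini-Hochberg adjustment ran over all genes tested, and an adjusted p of 0.05 was the threshold. DESeq2 1.42.0 and limma 3.58.1 were alternatives, and the edgeR step was tested on simulated data. CPM use TMM-scaled totals, and correlations use log2 CPM with a prior count of 2. Permutation p-values are two-sided from 100000 permutations of all 11 libraries, without regard to sex or treatment. Gene lengths came from GENCODE M21 on GRCm38.

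The genes, lists and tests were chosen with earlier results of these data known. From each related list, the 3 genes with the lowest unadjusted p over both sexes were named, with every list gene that passed. For likeness, the 5 genes with the highest r were named, except 1 that is not reported here. Cell types were shown by whole lists and their most abundant genes. Counting error covers reads, not molecules.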

Additional observations from a re-analysis of the deposited data

Results flagged for a closer look

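Values standing apart from the rest of their treatment group were looked for among the 6 CAIA and the 5 control libraries of each of the 10 genes, 20 groups in all, with Dixon's criterion, which flags about 1 in 20 groups by chance. It found 2. Slc4a4 had 250.05 CPM in male control 1, and its gap to the next control library was 0.798 of the range of the controls. Gfap had 392.5 CPM in female control 3, with a gap of 0.888 of the range of the controls. Female control 3 also had the highest Aqp4, at 360.1 CPM, and the highest mean of the reactive astrocyte list, 2.57 log2 CPM, and the lowest mean of the thalamus markers, 7.31 log2 CPM. Male control 1 also had the lowest Kcnj10, Aqp4 and Slc1a2 of all 11 libraries. Pineal gland markers averaged 0.42 log2 CPM in female control 3 and 0.76 in male control 1, against -1.63 to -1.45 in the other controls. In CAIA libraries this mean ran from -1.89 to 1.86 log2 CPM. What these libraries share with the values was not tested.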

How the results depend on the processing

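Of the 10 astrocyte genes, 0 passed in each comparison under each alternative run, except without replicate 3 of the male controls, where Slc4a4 passed over both sexes and in males. With single libraries left out, the count was thus 0 to 1 in these comparisons. That fit has a sole male control, which is assumed to vary like the other groups. The fits with the replicate number as a block, across both sexes or within each sex, also gave 0 of 10 in each comparison. Deviations from the group means correlated at -0.206 to 0.0317 between same-numbered libraries of a sex. With so few libraries in a group these deviations constrain each other, so the values cannot settle whether the numbers pair the libraries. Of genes in the 7 related lists, 3 passed over both sexes, with 1 in females and 0 in males. These counts were 5, 5 and 5 with no filter, a fit that did not use each gene's own spread, which also gave 2 in female against male. They were 0 and 0 over both sexes and in females alone with the choroid plexus level as a covariate, 1 and 0 with the hippocampus and cortex level, and 0 in females with the pineal level. In females the count was 2 with DESeq2, limma-voom with quality weights, the female libraries alone or the replicate block within each sex. In males it was 1 with DESeq2, the male libraries alone or that replicate block. Leaving out single libraries gave 2 to 3 over both sexes, 0 to 2 in females and 0 to 3 in males.

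The signs that turned are given here, and the cause was not tested. Over both sexes, log2 fold changes scaled on other astrocyte genes were -0.024 for Slc1a2, -0.012 for Slc1a3 and -0.047 for S100b. With the choroid plexus covariate, which separates the treatments, they were -0.10 for Kcnj10, -0.29 for Slc1a2, -0.13 for Slc1a3, -0.040 for S100b, 0.030 for Car14, 0.21 for Slc12a2, -0.011 for Sparcl1 and 0.27 for Steap4. In females they were -0.14 for Kcnj10, 0.79 for Gfap, 0.034 for Slc4a2, 0.20 for Car14 and 0.96 for Steap4, and in males -0.069 for Kcnj10. With the hippocampus and cortex covariate, which separates the treatments in males, Slc1a2 was -0.11 over both sexes and -0.17 in males. The same covariate gave 0.13 for the sex difference of Slc1a2, and 0.044 for Aldh1l1 in females. Gfap in females was 0.0033 with DESeq2 size factors, 0.0035 with DESeq2, 0.056 with limma-voom, 0.20 with quality weights, 0.0047 with no filter, 0.0021 in the female libraries alone, and 0.031 and 0.056 with the replicate block across both sexes and within each sex. Slc4a4 in females was -0.00081 scaled on astrocyte genes, and S100b in males 0.020 with the replicate block within each sex. Leaving out single libraries turned signs within these ranges: Slc1a2 -0.044 to 0.18 over both sexes and -0.38 to 0.036 in females, Aldh1l1 -0.072 to 0.040 over both sexes, -0.11 to 0.11 in females and -0.065 to 0.017 in males, S100b -0.059 to 0.13 over both sexes and -0.22 to 0.17 in males, Gfap -0.16 to 0.34 in females, Kcnj10 -0.0043 to 0.21 in males and Tjp1 -0.023 to 0.24. With the longest protein-coding transcript, ranks of control levels were 2 for Kcnj10, 5 for Gja1, 9 for Gjb6, 1 for Slc1a2, 4 for Slc1a3 and 7 for S100b. With the hippocampus and cortex covariate, Car14 and Steap4 kept log2 fold changes of -0.63 and -1.72 over both sexes, with edgeR adjusted p-values of 0.0715 and 0.138. Steap4 had log2 fold changes of -1.64 and -1.86, with adjusted p-values of 0.107 and 0.0872, with the replicate block across both sexes and within each sex. Depth bears most on Steap4, at 0.237 to 0.889 CPM in CAIA and 1.09 to 2.45 CPM in control libraries, while each of the 10 genes had at least 1247 counts in every library.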
